A study of Mus musculus with 6 samples.

Results

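Binding of the T-box transcription factor Eomes was examined at 7 genes whose proteins shorten the life of messenger RNA: Zfp36, Zfp36l1, Zfp36l2, Zc3h12a, Zc3h12d, Rc3h1 and Rc3h2. The members were the rows of 3 peak lists that carried one of these symbols. They numbered 45 of 39073 rows in experiment 1, 54 of 35421 in experiment 2 and 73 of 50563 in experiment 3. After rows that repeated an interval were reduced to 1 and overlapping intervals were merged across the lists, they formed 72 of 84399 regions. Each experiment set the chromatin precipitated with an antibody to Eomes (IP) against its own input, DNA that had not been precipitated. All libraries came from natural killer (NK) cells of the spleen of wild-type C57BL/6 mice of 8 to 12 weeks, and cells of several animals were pooled. The cells had been held in culture for 4 days with IL-15 at 100 ng/mL, so they are expanded NK cells and not cells taken straight from the spleen. The 3 IP and 3 input libraries were the only groups, and no library without Eomes was analysed here.

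The 7 genes fall into 3 families. Zfp36, which encodes tristetraprolin, and its relatives Zfp36l1 and Zfp36l2 encode zinc finger proteins that bind AU-rich elements of transcripts and bring in the CCR4-NOT complex, which removes the poly(A) tail. Zc3h12a encodes Regnase-1, an endonuclease that cuts stem-loops in transcripts of inflammatory genes, and Zc3h12d encodes its relative Regnase-4. Rc3h1 and Rc3h2 encode Roquin-1 and Roquin-2, RING proteins that bind similar stem-loops and also recruit deadenylases. In lymphocytes these proteins are known for restraining transcripts of cytokines and of activation genes. Eomes is a factor of NK cell maturation and binds DNA through the T-box domain.

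A region was called reproducible when at least 2 of the 3 experiments had a peak in it. A reproducible region was assigned to 6 of the 7 genes, while 43.6% of 21896 protein-coding genes had one. A region of all 3 experiments was assigned to 5 of the 7, against 28.8% of genes. The genes were chosen from these same lists, so the counts are a description and no test was run on them. Of the 72 regions, 25 had peaks from every experiment, 8 from 2 and 39 from 1. A peak of any kind was assigned to all 7, beside 70.6% of genes; by experiment this was 6, 6 and 7 of the 7, beside 54.1%, 54% and 60.1%. A reproducible region of the promoter class was assigned to 6 of the 7, beside 37.2%. The spread over the genes was uneven. Of the 33 reproducible regions, Zfp36l2 held 17, Zc3h12a 7, Zfp36l1 4, Zfp36 3, Zc3h12d 1, Rc3h1 1 and Rc3h2 none. Of the 39 regions of a single experiment, 25 came from experiment 3, which also had the longest list, 9 from experiment 2 and 5 from experiment 1. These single regions were mostly weak, with a pileup of 8 to 18 fragments and a median fold enrichment of 3.78 (2.89 to 6.37). The reproducible regions had a median of 5.79 and began at 3.47, so the 2 groups overlapped.

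**Figure D1:**
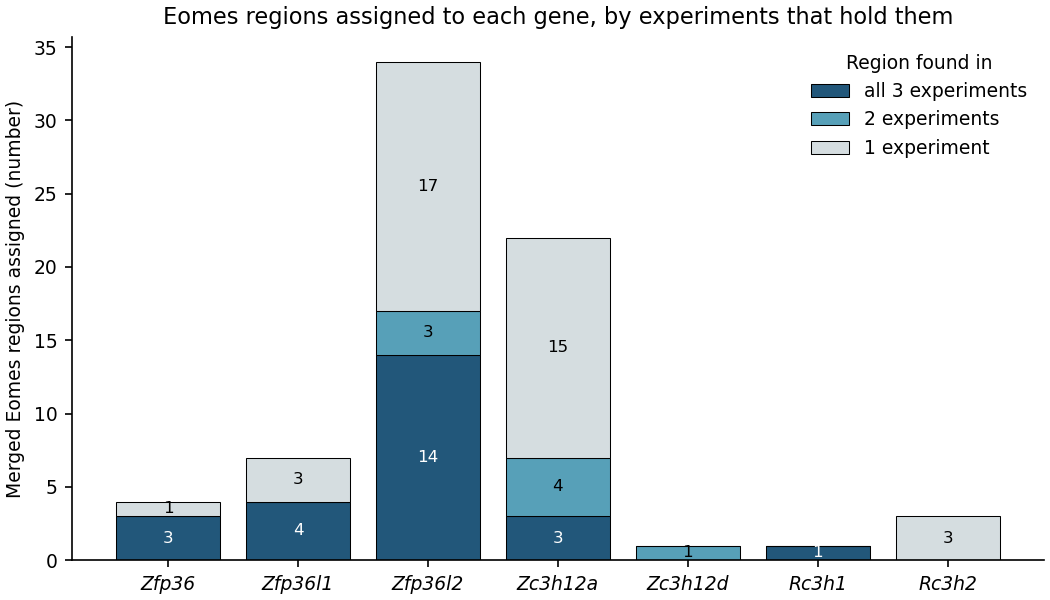
Number of merged Eomes regions assigned to each of the 7 genes (vertical axis), split by the number of experiments that hold the region. Zfp36l2 has 14 regions of all 3 experiments, the most of the 7 genes, and Rc3h2 has only regions of 1 experiment.

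Pileup values were whole and were taken to be the number of IP fragments that overlap at a summit. The fold enrichment is the authors' ratio of IP to local background. Over whole lists the median pileup was 12, 11 and 14 fragments in experiments 1, 2 and 3, and the median fold was 4.10, 4.67 and 4.08. The smallest pileup in each list was 8, 7 and 9 fragments, so weaker binding was not detectable. How many cells carry a bound factor and how strongly it is bound in each cell cannot be told apart in such values. Peak lists hold no expression, so they cannot check the identity of the cells. Of 6 NK marker genes, 5 had a reproducible region (all but Klrk1), as did 2 of 5 T cell, 1 of 4 B cell and 2 of 4 myeloid marker genes. Positions are on mm10, and a percentile gives an interval's rank by −log10 q-value within its own list, with the strongest near the top of the scale.

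Promoter sequence was available for 6 of the 7 genes, and not for Zfp36l2. It is shown for the 4 at which peaks of at least 2 experiments covered more than 100 of the bases before the start. At Zc3h12d they covered 22, and its sequence is not shown. The letters are the 250 bases before the RefSeq start, 5′ to 3′ on the strand of the gene, from the GRCm38.p6 table that underlies mm10. Capitals mark the bases that lay inside a peak of at least 2 experiments.
Zfp36, chr7:28379229-28379478, minus strand: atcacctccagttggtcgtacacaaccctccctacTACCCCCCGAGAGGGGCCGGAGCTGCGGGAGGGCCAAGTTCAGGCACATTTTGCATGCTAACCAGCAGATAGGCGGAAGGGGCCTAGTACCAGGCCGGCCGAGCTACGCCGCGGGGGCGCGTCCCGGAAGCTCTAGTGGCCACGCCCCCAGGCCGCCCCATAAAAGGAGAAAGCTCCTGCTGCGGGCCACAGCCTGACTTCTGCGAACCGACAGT
Zfp36l1, chr12:80113014-80113263, minus strand: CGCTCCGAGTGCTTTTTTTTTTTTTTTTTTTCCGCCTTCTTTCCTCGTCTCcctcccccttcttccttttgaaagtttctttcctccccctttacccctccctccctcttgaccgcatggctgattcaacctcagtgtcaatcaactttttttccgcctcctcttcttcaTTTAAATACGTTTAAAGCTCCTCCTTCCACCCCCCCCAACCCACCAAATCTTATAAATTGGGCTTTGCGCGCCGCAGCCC
Zc3h12a, chr4:125127882-125128131, minus strand: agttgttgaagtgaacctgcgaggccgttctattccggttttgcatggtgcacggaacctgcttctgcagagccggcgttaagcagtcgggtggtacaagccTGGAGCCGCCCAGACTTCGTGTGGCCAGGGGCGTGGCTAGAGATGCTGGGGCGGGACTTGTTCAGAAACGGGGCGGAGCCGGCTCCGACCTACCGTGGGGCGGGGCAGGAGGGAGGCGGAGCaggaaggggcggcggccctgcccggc
Rc3h1, chr1:160906161-160906410, plus strand: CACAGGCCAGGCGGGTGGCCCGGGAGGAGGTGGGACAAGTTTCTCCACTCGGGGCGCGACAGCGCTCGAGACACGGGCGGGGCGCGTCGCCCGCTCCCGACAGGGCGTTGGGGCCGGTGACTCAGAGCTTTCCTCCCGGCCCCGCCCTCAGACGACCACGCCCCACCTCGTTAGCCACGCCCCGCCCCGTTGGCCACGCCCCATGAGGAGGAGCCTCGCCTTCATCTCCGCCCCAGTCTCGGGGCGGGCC
Peaks of all 3 experiments covered 209 of the 250 bases at Zfp36, 133 at Rc3h1, 9 at Zfp36l1 and 0 at Zc3h12a. At Zfp36l1, 131 of the 250 bases lay in a peak of at least 2 experiments, and 32 of the lower-case bases lay in no peak at all, between the region over the start and the next one upstream. At Zc3h12a the capitals rest on experiments 1 and 3, since experiment 2 had no peak there. Windows for 6 of the 7 genes were in the table, and Zfp36l2 had none. Intervals of all 3 experiments covered the start of Zfp36l2, those of experiments 2 and 3 from -583 and -408 bp. The T-box half-site AGGTGTGA, searched on both strands in windows from 250 bases before to 50 after the table's start, was in 0 of the 6 and in 1.28% of all 32851 windows. Its shorter core AGGTGT, which lies inside the half-site, was also in 0 of 6, against 13.7% of all windows. For Zc3h12d and Rc3h2 the start in that table lies inside the gene as given here, downstream of its outermost RefSeq start. These letters are thus not in these windows, which says nothing of sequence elsewhere. The 6 windows had a GC content of 52.0% to 73.0% (median 63.8%), against a median of 52.7% over all windows. Rc3h1 was the richest, and Zfp36l1, with its long runs of T and C, was the poorest.

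At Zfp36 (chr7:28376784-28379228, minus strand, ENSMUSG00000044786) Eomes peaks lay over the start and in a block just upstream. The region with the best mean percentile over the lists, chr7:28381937-28383691, was in the promoter class at -2716 bp from the transcription start site (TSS). Its pileup was 45, 43 and 67 fragments in experiments 1, 2 and 3, and its fold was 9.57, 16.5 and 15.1 (mean 13.7 ± 3.66, SD, n = 3). Its percentiles were 98.4, 99.3 and 99.2, so all 3 experiments ranked it high. The block was wide, at 1755 bp, and was not one summit. Experiment 1 had 2 intervals within it, with pileups of 43 and 45. Experiment 2 had 3, with 34, 12 and 43, and experiment 3 had a single interval over nearly all of the block. The summits with the highest score lay 976 bp apart between experiments.

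A second upstream region of Zfp36, chr7:28380947-28381590 at -1695 bp, was narrower and its summits agreed to within 25 bp. Its pileup was 40, 20 and 26 fragments, so experiment 1 was highest here, whereas experiment 3 was highest in the block above. In experiment 1 it also ranked above that block, with a percentile of 98.8 and a fold of 12.8. The region over the start, chr7:28378088-28379798, had pileups of 21, 25 and 37 and a fold of 8.98 ± 1.72 (SD, n = 3). It ran from the promoter into the gene, and each experiment had a second, weaker interval inside the gene, with pileups of 12, 13 and 22. One more region inside the gene was seen in experiment 1 alone (13 fragments).

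Zfp36l1 (chr12:80107760-80113013, minus strand, ENSMUSG00000021127) had 4 regions of all 3 experiments, and each was in the promoter class. The farthest, chr12:80115220-80116227 at -2207 bp, was the strongest. Its pileup was 42, 27 and 50 fragments and its fold 8.72, 9.83 and 14.04 (mean 10.9 ± 2.81, SD, n = 3), at percentiles of 97.8, 96.4 and 98.5. The 3 regions nearer the start were less even. At chr12:80113188-80113742, 175 bp upstream, the pileup was 23, 15 and 41, and the percentile was 94.3 and 95.1 in experiments 1 and 3 and 11.2 in experiment 2. At chr12:80114104-80114660, -1269 bp, the pileup was 10, 23 and 22, and the percentiles 1.58, 94.9 and 63.3 put experiment 2 highest and experiment 1 near the bottom of its list. The region over the start, chr12:80112814-80113155, had 15, 11 and 18 fragments and a fold of 4.23 ± 0.83 (SD, n = 3). The experiments thus differed in which of the 3 inner regions was high. A further 3 regions, all inside the gene, came from a single experiment, with 11 fragments in experiment 1 and 12 and 16 in experiment 3.

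**Figure D2:**
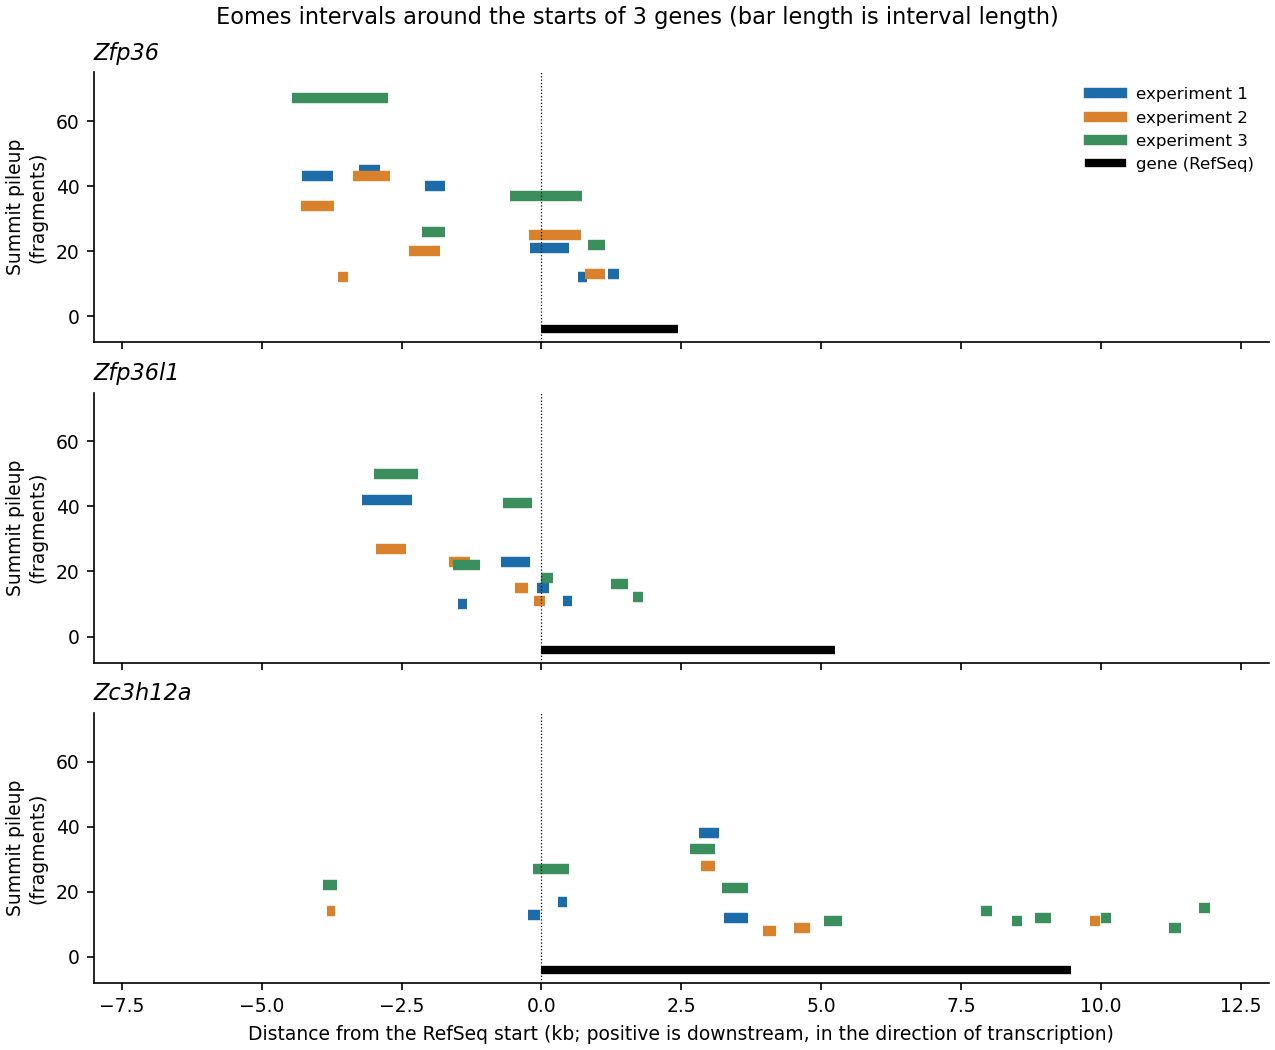
Eomes intervals around the starts of Zfp36, Zfp36l1 and Zc3h12a: horizontal bars show each interval's extent by distance from the RefSeq start in kb, their height is the summit pileup in fragments, and colour marks the experiment. At Zfp36 and Zfp36l1 the highest bars lie upstream of the start, and at Zc3h12a bars of all 3 experiments overlap inside the gene and not over its start.

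Zfp36l2 (chr17:84183924-84187947, minus strand, ENSMUSG00000045817) was the gene of the set with the most binding by number of regions. It held 34 regions over 157 kb, of which 14 came from all 3 experiments, 3 from 2 and 17 from a single one. Its reproducible regions, 17 in number, spanned 113 kb, and no reproducible region inside that span was assigned to another gene. This came to 15.1 reproducible regions per 100 kb, beside 1.17 per 100 kb of chromosome 17 as a whole. The span was drawn around these regions, at a gene chosen for their number, so a value above that of the chromosome was fixed by the choice. Only 2 of the 17 were in the promoter class. A further 3 lay just past the end of the gene, 11 were distal intergenic, and 1 lay in an intron of Thada, the neighbouring gene upstream. Most were far from the gene, since 12 of the 17 lay more than 10 kb beyond its ends. Counting only regions over the gene or within 10 kb of it therefore gave 5 for Zfp36l2 in place of 17. The assignment rests on the nearest TSS in the deposited annotation, and whether these sites act on Zfp36l2 was not tested.

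The binding at Zfp36l2 fell into stretches in which neighbouring reproducible regions were less than 5 kb apart. The stretch farthest downstream, chr17:84114028-84120103, held 5 regions of all 3 experiments within 6.08 kb, at 67921 to 73219 bp from the TSS. It had the region with the highest mean fold at the gene, chr17:84119098-84120103, with pileups of 45, 38 and 65 fragments and folds of 11.6, 14.3 and 12.3 (mean 12.7 ± 1.40, SD, n = 3). Next to it, chr17:84116143-84116992 had pileups of 58, 39 and 71 and a fold of 11.7 ± 3.23 (SD, n = 3). Both were high in every list, with percentiles of 98.2 or more. Their summits agreed to within 20 and 57 bp. Between them, chr17:84118225-84118740, was even across experiments, with a fold of 8.05 ± 0.73 (SD, n = 3). The remaining pair of the stretch was weaker, at 5.17 ± 1.28 and 3.47 ± 0.77 (SD, n = 3 each).

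The middle stretch, chr17:84141501-84151809, held 5 reproducible regions, 4 of them in all 3 experiments. RefSeq places them within the long noncoding gene Gm19696 (chr17:84134017-84156428), although the deposited class was distal intergenic. The strongest, chr17:84151329-84151809, lay 36217 bp from the TSS and had pileups of 25, 25 and 50 fragments and a fold of 11.0 ± 2.76 (SD, n = 3). Its neighbour chr17:84141501-84142181 varied more, with 16, 19 and 43 fragments and percentiles of 69.9, 91.4 and 97.5. Experiment 3 was highest at both. A single region of experiments 1 and 2, chr17:84166425-84166771, with 11 and 12 fragments, stood between this stretch and the gene.

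The stretch at the gene itself, chr17:84180615-84189060, held 5 reproducible regions in 8.45 kb. The region of Zfp36l2 with the best mean percentile over the lists was here and not at the promoter, although it came first of the gene's regions only in experiment 2. It was chr17:84180615-84181397, 2 to 3 kb past the gene's end and 6550 bp from the TSS, within the RefSeq noncoding gene Gm41640 (chr17:84159877-84182931). Its pileup was 58, 46 and 86 fragments, its percentiles were 99.3, 99.5 and 98.8, and its summits agreed to within 14 bp. Pileup and fold ranked the experiments differently, with experiment 3 highest by pileup and lowest by fold. The fold was 12.0, 17.3 and 8.19 (mean 12.5 ± 4.55, SD, n = 3). The local background recovered from the 2 values was 3.93, 1.72 and 9.62 fragments, so the highest pileup, in experiment 3, stood over the highest background. Both promoter-class regions were weaker. The one over the start, chr17:84187638-84189060, had 15, 12 and 23 fragments and a fold of 4.20 ± 0.85, and the one inside the gene, chr17:84185574-84187086, had 12, 12 and 26 and a fold of 5.52 ± 1.45 (SD, n = 3 each). Upstream, the region in Thada, chr17:84226151-84226604, had 18, 13 and 47 fragments, and its percentile ran from 12.0 in experiment 2 to 97.4 in experiment 3.

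**Figure D3:**
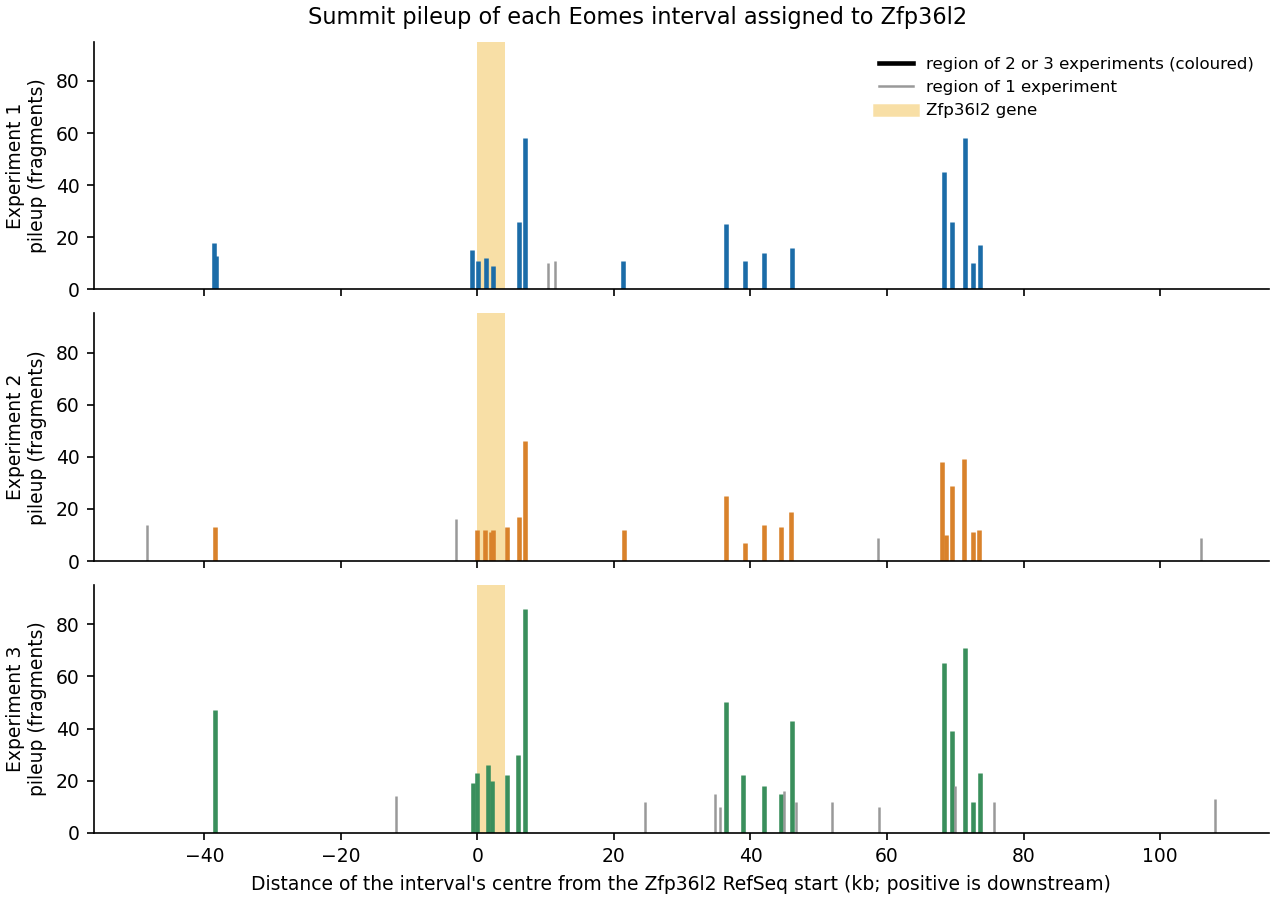
Summit pileup in fragments (vertical axis) of every Eomes interval assigned to Zfp36l2, by distance in kb of the interval's centre from the RefSeq start, with 1 panel per experiment. Coloured lines belong to regions of 2 or 3 experiments and grey lines to regions of 1. The tallest lines in each panel stand just past the gene's end and about 70 kb downstream, where pileups reach 58, 46 and 86 fragments.

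Among the endonuclease genes, Zc3h12a (chr4:125118414-125127881, minus strand, ENSMUSG00000042677) had 22 regions, 7 of them reproducible and 3 of those in all 3 experiments. Its best-ranked site lay far upstream, at chr4:125176666-125177245, 48826 bp before the TSS. The pileup there was 47, 48 and 84 fragments and the fold 9.73, 18.0 and 20.8 (mean 16.2 ± 5.77, SD, n = 3), the highest mean of any region of the 7 genes. Its percentiles were 98.6, 99.5 and 99.7, and its summits agreed to within 20 bp. A second upstream site, chr4:125172678-125173092, had 26, 21 and 60 fragments and a fold of 8.23 ± 2.71 (SD, n = 3). RefSeq has 2 long noncoding genes, Gm32611 and Gm40245, across both sites.

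The third region of all 3 experiments at Zc3h12a was chr4:125124708-125125218, with 38, 28 and 33 fragments and an even fold of 8.82 ± 0.95 (SD, n = 3). Its summits lay within 12 bp of each other. The deposited class calls it a promoter, -2188 bp from the start of another transcript, but it lies inside the gene, 2663 bp downstream of the RefSeq start. The region around that RefSeq start, chr4:125127393-125128116, had no peak in experiment 2. In experiment 3 an interval of 27 fragments lay over the start, and in experiment 1 intervals of 13 and 17 fragments lay on either side of it. Experiment 3 weighed heavily on this gene. It alone held 11 of the 15 regions of a single experiment, and without it 3 reproducible regions remained in place of 7. With a peak required in all 3 experiments the count was also 3, and over the gene or within 10 kb it was 4.

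Zc3h12d (chr10:7832323-7870397, plus strand, ENSMUSG00000039981) had a single region, around its start at chr10:7832108-7832741. The pileup was 9 fragments in experiment 1 and 13 in experiment 3, with no peak in experiment 2, and the fold was 3.23 and 3.86. The interval of experiment 3 lay over the RefSeq start and that of experiment 1 just downstream of it. The percentile was 8.25 in experiment 1 and 42.5 in experiment 3, so neither list ranked it high. No reproducible region was left when experiment 1 or experiment 3 was left out, when peaks under a −log10 q-value of 2 or 5 were dropped, when all 3 experiments were required, or when intervals had to share 50% of the shorter one. Inside the gene, 5 further regions carried the symbols of Mir5104 or Gm24726. The reproducible one of these, chr10:7844270-7844517, had a fold of 3.00 ± 0.16 (SD, n = 2), and with it the gene and its surroundings to 10 kb held 2 reproducible regions.

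Of the Roquin genes, Rc3h1 (chr1:160906411-160974976, plus strand, ENSMUSG00000040423) had 1 region, found in all 3 experiments, around the start at chr1:160905919-160906925. The interval of experiment 1 lay just upstream of the start, and experiments 2 and 3 had one over it. Its pileup was 16, 10 and 22 fragments and its fold 3.13, 4.44 and 6.91 (mean 4.83 ± 1.92, SD, n = 3). The percentile was 32.1, 42.8 and 87.0, so only experiment 3 ranked it high. With peaks under a −log10 q-value of 5 dropped, it was no longer reproducible. Rc3h2 (chr2:37368861-37424370, minus strand, ENSMUSG00000075376) had 3 regions of 1 experiment each. Experiment 2 had 9 fragments over the deposited start of a transcript (chr2:37422759-37422923) and 9 in exon 5 of 22 (chr2:37409496-37409649). Experiment 3 had 13 fragments 272 bp downstream of a deposited start (chr2:37422310-37422597). Near the start, the intervals of experiments 2 and 3 did not overlap, and experiment 1 had none.

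Ordered by the mean fold of their leading region, the genes ran Zc3h12a, Zfp36, Zfp36l2, Zfp36l1, Rc3h1, Rc3h2 and Zc3h12d. The means of neighbours among the first 4 did not differ beyond their SDs. Each of the means, 16.2, 13.7, 12.5 and 10.9, lay closer to the next than the smallest of their SDs (2.81). The SDs do not take the pairing by experiment into account. In every list Zc3h12a stood above Zfp36, by only 9.73 against 9.57 in experiment 1, and Zfp36 stood above Zfp36l1. Only Zfp36l2 changed its place from list to list. In experiment 1 Zfp36l2 came first of the 4, in experiments 2 and 3 Zc3h12a did, and in experiment 3 Zfp36l2 came last. Between Zfp36l1 and Rc3h1 the values did not overlap, since the lowest fold of the former was 8.72 and the highest of the latter 6.91. The leading region is the best-ranked of a gene's regions, and Zfp36l1 had 7 to choose from where Rc3h1 had 1. For the region over the start, the fold was 4.23 ± 0.83 at Zfp36l1, 4.20 ± 0.85 at Zfp36l2 and 4.83 ± 1.92 at Rc3h1. At Zfp36 it was 8.98 ± 1.72 (SD, n = 3 each). Rc3h1, at 4.83, overlapped with both genes after it. Rc3h2 had a single value, 4.31 in experiment 2, which lay above both values of Zc3h12d (3.23 and 3.86).

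**Figure D4:**
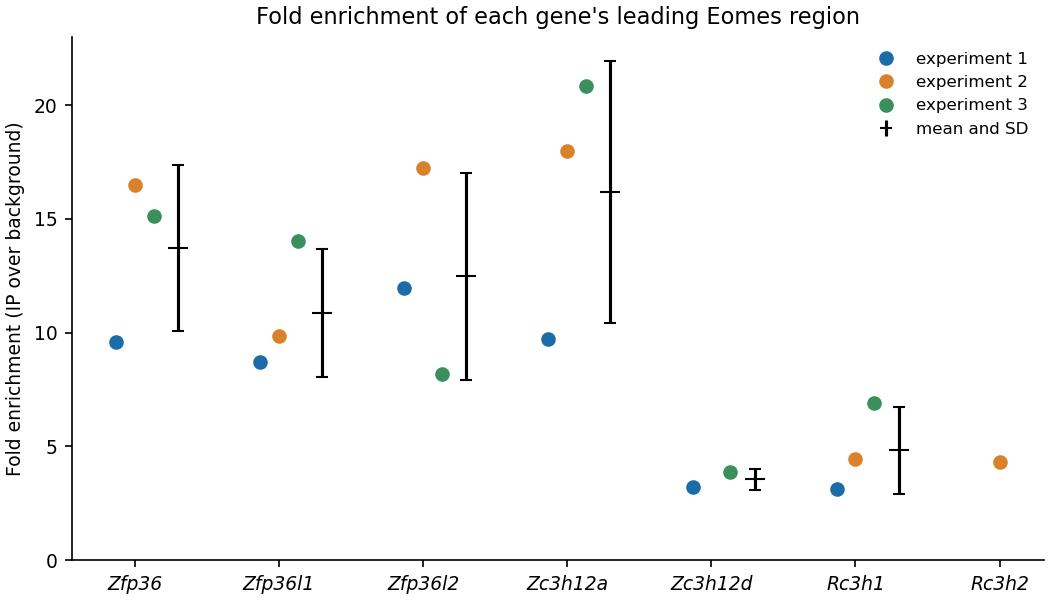
Fold enrichment over background (vertical axis) of the leading Eomes region of each gene in each experiment, with the mean and SD beside the points where at least 2 experiments hold the region. Zfp36, Zfp36l1, Zfp36l2 and Zc3h12a lie between 8.19 and 20.8, and Zc3h12d, Rc3h1 and Rc3h2 at 6.91 or below. The leading region is the best-ranked of a gene's regions, and the genes differ in how many they have.

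The reproducible regions of the 7 genes were divided between promoters and other sites. The promoter class, which reaches 3000 bp from a TSS, held 14 of the 33 (42.4%), beside 59.1% of all 20126 reproducible regions. Without experiment 2, 16 of 30 were in the promoter class. Both promoter-class regions of Zfp36l2 were then split, since intervals of experiment 2 had joined their parts. That count therefore does not show which side held more. All 19 regions outside the promoter class belonged to Zfp36l2 (15) or Zc3h12a (4). Such a region was assigned to 15.1% of protein-coding genes, and to 2 of these 7. By assigned symbol, the other 4 covered genes had reproducible regions of the promoter class only. Reproducible regions of other classes inside Zc3h12d and 865 bp past the end of Zfp36 carried the symbols Gm24726 and Plekhg2. Of the 25 regions with peaks from every experiment, 10 (40.0%) were at or above the 90th percentile in every list, as were 17.5% of all 10328 such regions. The 10 included 5 at Zfp36l2. At 7 of the 25 (28.0%) the percentile differed by more than 50 points between experiments, which was so for 19.8% of all such regions. Summits of the 25 spread over a median of 76 bp, beside 60 bp for all regions of 3 experiments. The median fold of the 25 was 7.93, and that of all 10328 was 5.70.

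Counted over protein-coding genes, 12 genes (0.0548%), Zfp36l2 included, had 17 or more reproducible regions, and Id2 had the most, at 29. The set was chosen with the high count of Zfp36l2 known, so its place here was fixed by the choice. These counts rest on assignment to the nearest TSS. Within 10 kb of the gene the count of Zfp36l2 was 5, and no share over genes is given for that. As many as the 7 of Zc3h12a were found at 0.708% of genes, as many as the 4 of Zfp36l1 at 3.45% and as many as the 3 of Zfp36 at 6.66%. The median over genes with any was 1, the number at Zc3h12d and Rc3h1. The genes most like Zfp36l2 in 3 numbers (reproducible promoter-class regions, other reproducible regions and regions of 1 experiment) were Itpr2, Cxxc5, Ctdp1, Ago2 and Lrrfip1. The distance over log2(number + 1) was 0.56 for Itpr2 and 0.68 for Lrrfip1. Where Zfp36l2 had 2, 15 and 17, Itpr2 had 2, 12 and 24, and Ago2 had 2, 12 and 11. The leading fold of Ago2 was higher, at 21.6, and that of Itpr2 lower, at 7.05. These numbers come from the same 3 lists and share their depth.

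**Figure D5:**
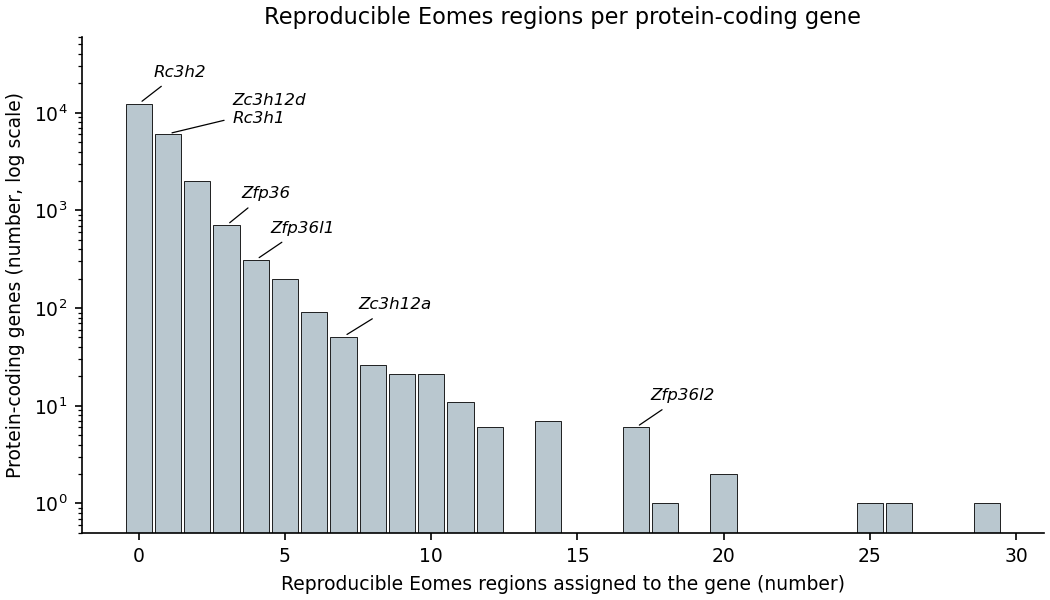
Number of protein-coding genes (vertical axis, log scale) by the number of reproducible Eomes regions assigned to them, with the 7 genes marked. Rc3h2 stands at 0, Zc3h12d and Rc3h1 at 1, Zfp36 at 3, Zfp36l1 at 4, Zc3h12a at 7 and Zfp36l2 at 17.

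Lists by role of other genes of mRNA decay, of partners of the 7 and of 14 known target transcripts held 62 genes. Of these, 50 (80.6%) had a reproducible region, beside 43.6% of all protein-coding genes. The lists were not matched to other genes for expression, which peak lists do not hold. Whether the difference is particular to mRNA decay genes was not tested. The median was 1 reproducible region a gene, and 47 of the 62 had one in the promoter class, beside 37.2% of all protein-coding genes. All 14 deadenylase genes were covered. Cnot6 and Cnot8, which encode catalytic subunits of CCR4-NOT, had promoter folds of 8.45 ± 2.16 and 8.32 ± 2.27, and the subunit gene Cnot11 had 6.95 ± 1.04 (SD, n = 3 each). All 5 genes for proteins that recruit deadenylases were covered too, led by the promoter of Tob2 (10.8 ± 5.29), a site 3876 bp upstream of Btg2 (8.05 ± 2.67) and the promoter of Btg1 (6.97 ± 1.84, SD, n = 3 each). Btg2 had 7 reproducible regions, the most of the 62 genes. Of the genes for decapping and 5′ to 3′ decay, 8 of 9 were covered. The exonuclease gene Xrn1 had 9.06 ± 3.50 and Dcp1b 6.95 ± 1.36 (SD, n = 3 each), and Edc4 had 6.23 ± 2.65 (SD, n = 2).

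Genes for proteins that work with or act on the 7 were covered at 7 of 7, beside 43.6% of all protein-coding genes. Upf1, the helicase that works with Regnase-1, had an exonic site 10779 bp from the TSS with folds of 8.12, 16.3 and 21.1 (mean 15.2 ± 6.58, SD, n = 3). Malt1, the protease that cleaves Regnase-1 and Roquins, had 7.33 ± 1.02 at its promoter, and Arid5a, which protects transcripts from Regnase-1, had 7.05 ± 2.03 (SD, n = 3 each). Other proteins that bind AU-rich elements were covered at 3 of 5, beside the same 43.6%. Hnrnpd had 8.55 ± 1.89, Tial1 5.45 ± 0.54 and Khsrp 5.21 ± 2.16 (SD, n = 3 each), and Elavl1 had no peak in any experiment. Relatives of the 7 genes were covered at 3 of 8 (37.5%), which is not above the 43.6% of all genes. Mex3b had a promoter fold of 11.1 ± 2.19, N4bp1 an intronic site at 5.55 ± 1.31 and Mex3c 4.78 ± 0.79 (SD, n = 3 each), while Zfp36l3, Zc3h12b and Zc3h12c had no peak.

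Genes whose transcripts these proteins are known to bind were covered at 10 of 14 (71.4%), beside 43.6% of all protein-coding genes. Rel, which encodes an NF-kB subunit and is a Regnase-1 target, had a promoter region with folds of 12.0, 18.1 and 16.0 (mean 15.3 ± 3.11, SD, n = 3). The leading site of the cyclin gene Ccnd1 lay 171659 bp upstream of the TSS, at 13.2 ± 2.66, and that of Ifng was a distal site at 10.3 ± 2.96 (SD, n = 3 each). Tnfrsf4 and Cxcl1 had no peak in any experiment.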

How the data were processed

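Eomes ChIP-seq of NK cells gave 3 IP and 3 input libraries, paired by experiment. The deposited values are 3 peak lists, 1 per experiment. Per the submitters' processing notes, Novoalign, ChIPseeker and the build mm10 were used. The name of the peak caller was not given in the sources used here. Per the file headers, a row held a pileup, a fold enrichment (ratio), a −log10 p-value, a −log10 q-value and an annotation to the nearest gene. Scores describe peaks within their own list, and means ± SD over experiments describe a region. Library depth is unknown, so no interval was computed, and counting noise was not separated from other spread. The smallest −log10 q-values, 1.31, 1.32 and 1.31, are the lists' own limit.

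Rows repeating an interval were reduced to the one with the highest −log10 q-value. This left 37456, 33841 and 46329 intervals. Intervals sharing at least 1 bp were merged with pandas 2.3.3 (tested on simulated data, and checked against bedtools 2.31.1, which gave the same 84399 regions). A region took its annotation from its row with the highest −log10 q-value. Its value in an experiment is that of the interval with the highest score there. The leading region is the one found in the most experiments, then the one with the best mean percentile. Local background was computed as (pileup + 1) / fold − 1, which takes 1 to have been added to both sides of the authors' ratio. Symbols, or failing that synonyms unique on a chromosome, linked the lists to the RefSeq table of GRCm38.p6. No test was made, since the genes and lists were chosen with earlier results of these data known. All 7 genes are named. From each role list, the 3 with the highest leading fold and those with no peak are named. Alternatives changed the q-value limit, the overlap, the experiments used, the number required and the assignment.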

Additional observations from a re-analysis of the deposited data

How the results depend on the processing

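The results over all members stayed within 1.5 times their value under 37 of 37 alternative values. The number of genes with a reproducible region was 6, and between 4 (−log10 q-value of at least 5) and 7 (regions within 10 kb of the gene) otherwise. Leaving out 1 experiment gave 5 to 6 genes, 28 to 30 reproducible regions in place of 33, 12 to 16 promoter-class regions in place of 14, and 42 to 46 covered genes of the 62 in the role lists in place of 50. Requiring all 3 experiments gave 25 regions, and joining intervals only at 50% of the shorter gave 35. Leaving out an experiment also split regions whose parts its intervals had joined. Zfp36 thus had 4 regions without experiment 1 or 3, in place of 3. Without experiment 1 the region over its start was split, and without experiment 3 the upstream block. At Zfp36l2 both promoter-class regions were split without experiment 2. Over single genes, 14 of 63 counts moved by more than 1.5 times, and those at Zfp36l2, Zc3h12a, Zc3h12d and Rc3h1 stand beside these genes' results. Zfp36 had 7 regions within 10 kb, against 3 assigned to it, and Rc3h2 had 1, against 0. Of 40 leading folds, 38 did not move beyond the spread. For a region of 3 experiments this was fixed when 1 was left out, since the mean then shifts by less than the SD. A −log10 q-value of at least 2 and the 50% overlap changed the fold only at Zc3h12d. The count is therefore no measure of stability. The exceptions were Rc3h1 at a −log10 q-value of at least 5 (6.91) and Rc3h2 without experiment 2 (3.11). Zc3h12d and Rc3h2 had no peak left at a −log10 q-value of at least 5, so they gave no fold there and are not among the 40. No paired analysis was possible because the lists were made by comparing IP with input and give no value for the input alone, and no test was run. Depth limits the weak regions, since a peak under 7 to 9 fragments was in no list.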

Other observations

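Some peaks close to the 7 genes carried another symbol. Within 10 kb of Zfp36, 6 regions were assigned to its neighbours Plekhg2 and Med29, 4 of them reproducible. The strongest was the Plekhg2 region chr7:28372166-28373104, with a fold of 5.16 ± 1.44 (SD, n = 3). Another, chr7:28375631-28375919, lay 865 bp past the end of Zfp36, with 4.29 ± 1.06 (SD, n = 2). Inside Zfp36l1, 1 region of a single experiment was assigned to Gm26669 (fold 5.10). Near Rc3h2, which had no reproducible region of its own, the promoter of Zbtb6 (chr2:37430606-37430990), 6236 bp upstream of the RefSeq start of Rc3h2, had a region of all 3 experiments with a fold of 4.43 ± 1.72 (SD, n = 3). No region within 10 kb of Zfp36l2, Zc3h12a or Rc3h1 carried another symbol.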
